A study of Homo sapiens with 14 samples.

Results

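Nonsense-mediated decay (NMD) transcripts are spliced RNAs of mostly protein-coding genes whose annotated stop codon lies well upstream of an exon junction. In the cell, the exon junction complex that splicing leaves behind, together with UPF1 and the SMG proteins, marks such a stop as premature, and the RNA is degraded. Several splicing regulators use this route on their own messages: a poison exon or a spliced 3′ end turns the message into a decay target when the protein is plentiful. The transcripts described here were the rows whose biotype field, the 8th field of the transcript name in the quantification tables, reads nonsense_mediated_decay. They were 21390 of 252048 transcript rows (8.49%) and belonged to 7819 of 62749 genes, of which 7515 also had a protein-coding transcript.

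The tables came from 14 RNA sequencing libraries of xenografts, tumours grown in mice from UMUC3, a human bladder cancer cell line. The groups were cells with a control sh construct by their titles, kept in regular medium (n = 3); FASN knockdown cells in regular medium (n = 3); control cells grown in 10% cigarette smoke medium, CSM, before engraftment (n = 4); and FASN knockdown cells after the same CSM exposure (n = 4). FASN encodes fatty acid synthase, and the design crosses its knockdown with a previous smoke exposure. All groups share 1 cell line, and the knockdown sequence, the number of clones, the host strain and its sex and age, and the length of exposure were not found in the sources used. The labels do not say whether libraries of a group came from separate tumours, so the p-values refer to the variation among libraries, part of which may be technical.

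Several facts of the libraries touch every value below. Total counts ran from 15810287 to 45209466 per library, and 7SL, the RNA of the signal recognition particle, took between 2.64% and 25.6% of the reads. TPM (a transcript's abundance per length, scaled to the same total in each library) put 18.1% to 56.6% on transcripts of coding genes. The targeted gene, FASN, was at 571, 404 and 379 CPM (counts scaled to the library size) in control libraries and at 121, 99.9 and 132 CPM in knockdown libraries of regular medium, with no overlap; the log2 fold change was -1.94 (SE 0.33, adjusted p = 0.024, edgeR quasi-likelihood test), and the adjusted p was 0.085 with a replicate block and between 0.055 and 0.14 without any 1 of the 6 libraries. After CSM it was at 456, 479, 423 and 366 CPM in control libraries and at 220, 166, 301 and 479 CPM in those labelled as knockdown, so that replicate 4 of the latter stood at the level of the controls (log2 fold change -0.57, SE 0.28, adjusted p = 0.29; -0.90 and 0.11 without that library). Of the urothelial markers, KRT20 and UPK3A were at 0 in all libraries and UPK2 and EPCAM at a median of 0 CPM, while KRT8 (94.9 CPM) and KRT18 (142 CPM) were present beside the mesenchymal VIM (1910 CPM, medians over libraries). The remaining listed urothelial and epithelial markers had medians from 0.172 CPM (UPK1A) to 4.80 CPM (TP63, at most 50.8 CPM). The mesenchymal CDH2 and ZEB1 had medians of 74.5 and 88.9 CPM. The libraries were also parted into 2 sets by fragment length, with a cut set after the data had been seen. The number of bases that the quantification takes off a transcript's length, which grows with the mean fragment length, was 160.5 to 175.6 in 6 libraries and 181.6 to 203.0 in 8. The cut lay at 180, while the widest gap between neighbouring values ran from 162.1 to 171.0, inside the shorter set. The shorter set held control replicate 1, knockdown replicate 3, CSM control replicates 1 and 2 and CSM knockdown replicates 3 and 4, so every group had 2 longer libraries and 1 or 2 shorter ones.

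Of these transcripts, 6 are shown by the bases that set them apart, because their genes carry the results: the transcript with the highest level (RPS3-216), 3 of splicing regulators, 1 of an exon junction protein (CASC3-204) and 1 of an enzyme of fatty acid oxidation (HADHA-211). The letters were read from the GENCODE 29 transcript with the same identifier, version and length, on GRCh38. In the first window of each, the capitals mark the stop codon; in the second, the capitals are the bases after an exon junction that no protein-coding transcript of the gene has.
RPS3-216, stop at chr11:75401658-75401660 (+): gaatgttcttggTGAgaagggccggcggat
RPS3-216, junction joining 75400777 to 75401640: tactctggagttgagAACACAGAATGTTCT
HNRNPA1-205, stop at chr12:54284311-54284313 (+): ggcagaagatttTAAttagggaggagtctg
HNRNPA1-205, junction joining 54286732 to 54286953: gttcgtggcagaaagGAACGTCCTTGTGAA
HNRNPA2B1-203, stop at chr7:26192516-26192518 (-): aggagccgatacTGAgcttcttcctatttg
HNRNPA2B1-203, junction joining 26192495 to 26191128: tcctatttgccatggCATTGATATGAACCA
SRSF2-208, stop at chr17:76736161-76736163 (-): gcggtgtcctctTAAgaaaatgatgtatcg
SRSF2-208, junction joining 76735061 to 76734562: ctggctattgaaaagGCGCAGTTGTGTAGC
CASC3-204, stop at chr17:40163987-40163989 (+): ctcctgaaggacTGAttccagcacctccag
CASC3-204, junction joining 40163602 to 40163886: acaggaatgctgcagGCCCATTGAGAAGAA
HADHA-211, stop at chr2:26234287-26234289 (-): acagagaatagtTGAgaaacttgaaaagtc
HADHA-211, junction joining 26238934 to 26234355: tctcccaattcaaagCATGTTAGCCGCTTG

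By annotation, the 6 transcripts meet the rule for decay in 2 ways; decay itself was not measured. HNRNPA1-205, HNRNPA2B1-203 and SRSF2-208 end their reading frame at a stop codon that a coding transcript of the same gene also uses. Each has a junction of its own behind that stop, and the last junction lies 75, 157 and 105 bases after it. RPS3-216, CASC3-204 and HADHA-211 have a stop of their own, 553, 177 and 1763 bases before the last junction. In HADHA-211 the junction shown jumps over a whole exon of a coding transcript and 15 junctions follow the stop. In RPS3-216 the stop lies within the first bases after the junction shown, and its coding sequence with the stop is 135 bases. CASC3-204 is annotated without a known start, so its 5′ end may be incomplete.

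Of the 21390 transcripts, 14359 (67.1%) matched a GENCODE 29 entry, and of the 2734 with a mean level of at least 1 TPM, 2204 (80.6%) did. The structures that follow are of those 2204. The median distance from the stop to the last junction was 331.5 bases (quartiles 160 and 721), and 99.6% exceeded 50 bases, the distance the annotation class is built on. Of the 2165 whose gene also has a coding transcript, 936 (43.2%) had no base outside the coding exons of their gene. Those set apart by a junction alone were 789 and held 47.7% of the TPM of the 2204, and 533 of the 789 had a junction that jumps over a coding transcript's exon. Another 574 carried an internal exon that no coding transcript has, the form of a poison exon. In the 507 with a single such exon the median exon length was 117 bases, the stop lay inside it in 78.5%, and 32.2% of the exons had a length divisible by 3. A stop shared with a coding transcript was found in 261 (12.1%) of the 2165, and 147 had neither a base nor a junction of their own. Only their ends, or a combination of junctions found in separate coding transcripts, can tell these 147 from coding transcripts. TM4SF1-203, one of the 15 most abundant, is among the 147.

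Most of these transcripts were rare. Of all 21390, 4827 were at 0 in every library, 2734 reached a mean of 1 TPM, 217 a mean of 10 TPM, and 430 were at or above 1 TPM in each of the 14 libraries. The 10 highest held 18.9% and the 100 highest 34.5% of the TPM of the class. The genes with the largest number of annotated NMD transcripts were FANCL (60) and MTO1 (54), against a median of 2 per gene.

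NMD transcripts took 2.94% to 4.07% of the reads and 0.842% to 2.87% of the TPM of a library. As a share of reads the control libraries stood at 3.25%, 3.57% and 3.80% and the knockdown libraries at 3.36%, 2.94% and 3.75%. After CSM the controls stood at 3.50%, 3.21%, 3.14% and 3.50% and the libraries labelled knockdown at 4.07%, 3.58%, 3.45% and 3.42%. The groups overlapped in each of the 4 comparisons. The means were 3.54% ± 0.28 (SD, n = 3) in controls and 3.35% ± 0.41 (SD, n = 3) in knockdown, a difference of -0.19 percentage points (exact two-sided permutation p = 0.60, the smallest possible being 0.10). After CSM they were 3.34% ± 0.19 (SD, n = 4) in controls and 3.63% ± 0.30 (SD, n = 4) in the libraries labelled knockdown, a difference of 0.29 percentage points (exact permutation p = 0.20), or 0.36 without replicate 4 of the latter (exact permutation p = 0.17). Over the 4 comparisons by reads and the 4 by TPM the Benjamini-Hochberg adjusted p of the exact permutation tests ran from 0.46 to 0.86. By TPM, the means were 1.65% ± 0.23 in controls, 1.43% ± 0.64 in knockdown (SD, n = 3 each), 1.62% ± 0.34 in CSM controls and 2.12% ± 0.53 in the libraries labelled knockdown after CSM (SD, n = 4 each). The lowest value, 0.842% in knockdown replicate 2, came with the highest 7SL share (25.6% of reads).

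When only transcripts of coding genes were kept in the total, 7SL no longer entered, and NMD transcripts held 3.55% to 5.07% of the TPM. The group means were then 4.41% ± 0.69 (SD, n = 3) in controls, 4.56% ± 0.09 (SD, n = 3) in knockdown, 4.06% ± 0.39 (SD, n = 4) in CSM controls and 4.31% ± 0.77 (SD, n = 4) in the libraries labelled knockdown after CSM, and the sign of both the knockdown difference in regular medium and the CSM difference in knockdown cells turned. The 6 libraries with shorter fragments stood at 3.55% to 4.48% (median 3.71%) and the 8 with longer fragments at 4.31% to 5.07% (median 4.65%). The part of fragment length in these shares was not tested.

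**Figure D1:**
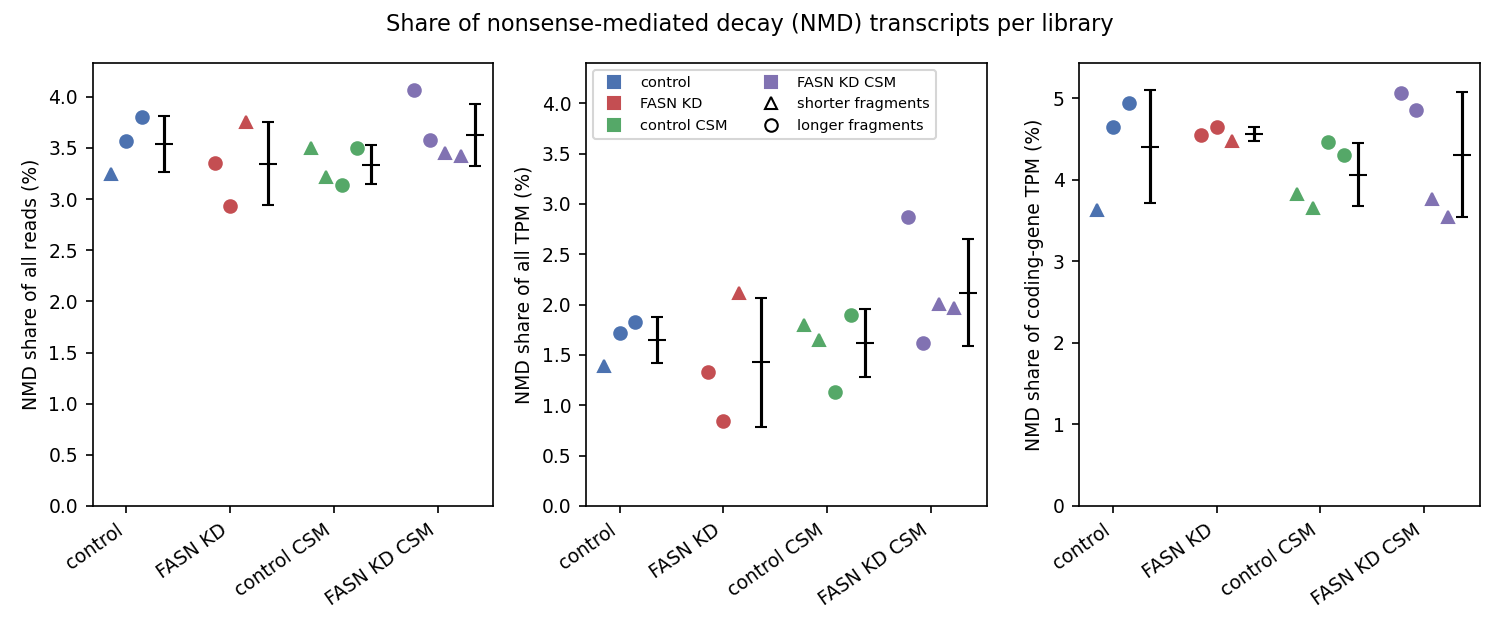
NMD share of all reads, of all TPM and of the TPM of coding genes (percent, y axes from 0) in each of 14 libraries by group; triangles are libraries with shorter and circles with longer fragments, and the black bar is the group mean ± SD. The groups overlap in all panels, and in the right panel the shorter-fragment libraries reach 4.48% at most while the longer ones start at 4.31%.

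The 15 most abundant NMD transcripts came from 14 genes. RPS3-216, of the small ribosomal subunit protein gene RPS3, had a mean of 937 TPM ± 231 (SD over 14 libraries), 47.7% of its gene's mean TPM. It was at 812, 1178 and 1071 TPM in controls, at 891, 646 and 766 TPM in knockdown, at 820, 979, 1178 and 1002 TPM in CSM controls, and at 1378, 1085, 527 and 779 TPM in the libraries labelled knockdown after CSM. All 4 groups overlapped, with the lowest and the highest value both in the last. RPS3-218 of the same gene followed with 505 TPM ± 199 (SD, n = 14). The second highest was RPL8-211, of the large subunit protein RPL8, with a mean of 747 TPM ± 563 (SD, n = 14). Its values fell into 2 classes, 84.9 to 288 TPM in the 6 shorter-fragment libraries and 903 to 1693 TPM in the 8 longer ones, with members of every group in both.

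HNRNPA1-205, of the splicing repressor HNRNPA1, had a mean of 268 TPM ± 135 (SD, n = 14), at 254, 251 and 273 TPM in controls, 168, 57.3 and 253 TPM in knockdown, 316, 293, 108 and 244 TPM in CSM controls and 622, 181, 344 and 393 TPM in the libraries labelled knockdown after CSM. The lowest values, 57.3 and 108 TPM, were those of the 2 libraries with the most 7SL (25.6% and 16.3% of reads). HNRNPA2B1-203 had 128 TPM ± 88.0 and was the main form of its gene (58.0% of its TPM). ACTG1-213 of cytoplasmic actin had 223 TPM ± 69.4 and ITGB1-216 of integrin beta 135 TPM ± 98.3. HNRNPH1-238 (116 TPM), TM4SF1-203 (106 TPM), EIF4G2-220 (101 TPM), TPM3-219 of a tropomyosin (91.3 TPM), LDHA-222 of lactate dehydrogenase (86.7 TPM), GPI-221 of glucose-6-phosphate isomerase (62.6 TPM), PHB1-212 (56.4 TPM) and EIF3F-204 (55.3 TPM) completed the 15. For TM4SF1-203 too, the levels split mostly by fragment set, with 15.8 to 103 TPM in the shorter and 98.9 to 186 TPM in the longer libraries. Reads of the mouse host can be assigned to such conserved human transcripts, and their part in these levels was not tested.

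**Figure D2:**
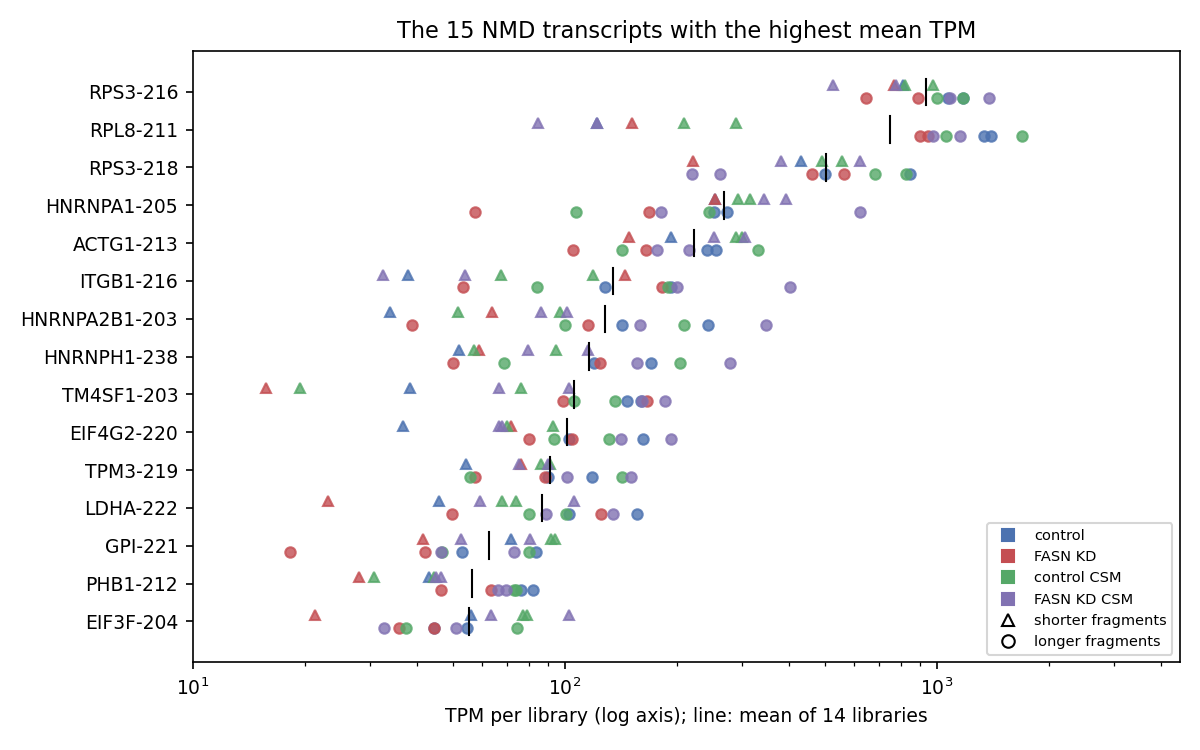
TPM per library (x axis, log scale) of the 15 NMD transcripts with the highest mean over 14 libraries (y axis), coloured by group; triangles (upper row) are shorter-fragment and circles (lower row) longer-fragment libraries, and the line is the mean. RPL8-211 shows a gap between 288 and 903 TPM that no library fills, while the groups mix within each row of points.

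Per gene, the NMD share is the TPM of these transcripts over the TPM of all transcripts of the gene. Among 9742 genes with a mean of at least 5 TPM, 4672 (48.0%) had an NMD transcript, and their median share was 5.49% (quartiles 1.56% and 15.1%). The share reached 20% in 872 genes (18.7%) and 50% in 136 (2.91%), was below 1% in 884 (18.9%), and 112 were listed at 0. For 9 genes every annotated transcript is of the class, so 100% is fixed by the annotation; among them are the readthrough genes MICOS10-NBL1 (39.2 TPM) and HNRNPUL2-BSCL2 (16.4 TPM). Among genes with a symbol, the next were SAMD12 (99.8% ± 0.4), FSIP2 (99.5% ± 1.1) and the readthrough ARPC4-TTLL3 (92.7% ± 8.6, SD over 14 libraries each).

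The SR proteins, splicing activators known for poison exons in their own genes, and the related TRA2A and TRA2B had a median share of 13.1% over 13 measured genes (range 2.10% to 60.7%), against 5.49% for all 4672. This list and the ones that follow were chosen with results of these data known, so their medians are a description. SRSF8 had the highest share, 60.7% ± 10.2, followed by SRSF2 (33.7% ± 27.6), SRSF7 (33.2% ± 10.1) and SRSF9 (32.3% ± 29.9), with SRSF1 at 18.0% ± 6.5 (SD over 14 libraries). TRA2B was at 8.91% and TRA2A at 4.39%. The SDs of SRSF2 and SRSF9 are nearly as large as their means, and the values by library show 2 classes. SRSF2 was at 60.0%, 9.0% and 4.0% in controls, at 4.2%, 8.5% and 80.8% in knockdown, at 62.9%, 46.6%, 7.7% and 17.5% in CSM controls and at 40.1%, 9.7%, 59.2% and 61.8% in the libraries labelled knockdown after CSM. All 6 shorter-fragment libraries were at 46.6% or more and all 8 longer ones at 40.1% or less. SRSF9 ran the other way, at 0.5% or less in all 6 shorter libraries and at 32.4% to 70.2% in the 8 longer ones. SRSF1 was at 20.2% to 29.2% in the shorter and at 9.4% to 16.6% in the longer libraries. SRSF7 and SRSF8 showed no such gap.

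Of the hnRNPs and other RNA-binding splicing regulators, 33 genes were measured, with a median share of 3.61% and 8 genes below 1%. HNRNPA2B1, which binds RNA and packages it for splicing and transport, had 65.0% ± 16.7, from 33.5% in control replicate 1 to 85.2% in control replicate 3. TARDBP, whose protein TDP-43 limits its own level through its 3′ end, had 34.4% ± 11.5. HNRNPH1 had 28.0% ± 5.2, between 20.5% and 36.8%, and HNRNPA1 24.99% ± 7.6 (SD over 14 libraries). HNRNPA2B1 and TARDBP were at 33.5% to 64.0% and 18.7% to 32.3% in the shorter-fragment libraries and at 70.6% to 85.2% and 29.9% to 51.0% in the longer ones.

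The decay machinery itself carried NMD transcripts. Of 25 listed NMD and exon junction complex factors, 15 had such a transcript and at least 5 TPM, with a median share of 8.22%. CASC3, a core exon junction protein, had 42.3% ± 11.3, MAGOHB, one of 2 nearly identical paralogs of another core protein, 35.3% ± 17.9, and the release factor ETF1 20.2% ± 7.6 (SD over 14 libraries). MAGOHB can share reads with MAGOH and its share is uncertain. RNPS1 was listed at 0 to 2 decimals in 7 libraries, all 6 of the shorter set and CSM control replicate 3, and at 3.3% to 25.7% in the other 7. UPF1, the helicase at the centre of the pathway, had 1.17%, and SMG1, the kinase that acts on it, 0.717%. CASC3 stood at 23.7% to 38.6% in the shorter and at 43.2% to 58.0% in the longer libraries.

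Among mRNAs known in the literature as NMD targets, only 3 of 12 listed genes had NMD transcripts and a level of at least 5 TPM. UPP1, uridine phosphorylase, had 48.9% ± 12.8, TBL2 35.03% ± 12.5 and GADD45B, a stress gene, 1.41% ± 1.9 (SD over 14 libraries). UPP1 was at 24.1% and 20.7% in CSM knockdown replicates 1 and 2 and at 44.2% to 67.6% in all other libraries.

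Cytosolic ribosomal protein genes had low shares as a rule and high ones in 2 genes: of 36 measured, 25 were below 1%, the median was 0.388%, and only RPS3 and RPL8 passed 20%. RPS3 had 73.8% ± 7.0 (SD, n = 14) and stood between 59.6% and 83.0% in every library. RPL8 had 37.2% ± 26.8, split into 4.2% to 11.8% in the shorter and 50.6% to 68.0% in the longer libraries. RPS25 followed with 6.49% ± 1.5.

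Of the fatty acid and sterol enzymes, 20 were measured, with a median of 2.54% and 3 genes of at least 20%. HADHA, which catalyses steps of mitochondrial fatty acid oxidation, had 47.5% ± 33.1 (SD, n = 14). It was at 8.6%, 60.2% and 85.2% in controls, at 70.0%, 85.9% and 24.0% in knockdown, at 11.4%, 5.9%, 70.4% and 60.3% in CSM controls and at 71.7%, 88.3%, 17.7% and 5.9% in the libraries labelled knockdown after CSM. Each value of at most 24.0% was from a shorter-fragment library and each of at least 60.2% from a longer one. MVD, mevalonate diphosphate decarboxylase of sterol synthesis, had 21.2% ± 16.6, with 0.6% to 9.6% and 29.4% to 44.8% in the shorter and longer set. SCAP, the escort of the sterol regulator SREBP, had 23.5% ± 4.4 and showed no split. ACACA, which makes the substrate of FASN, had 15.98% ± 7.1, and FDFT1, squalene synthase, 13.7% ± 7.2.

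**Figure D3:**
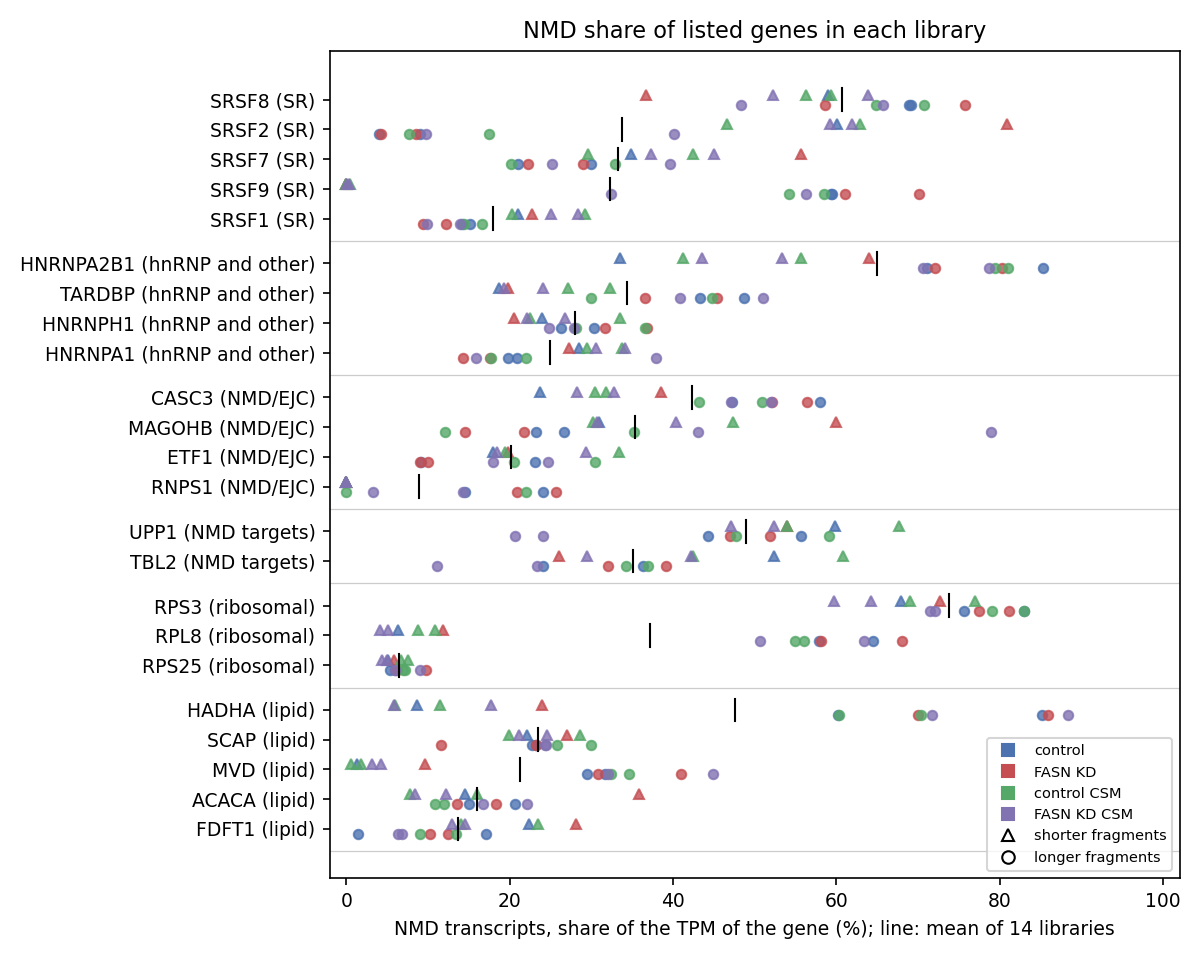
NMD share of gene TPM (x axis, percent) in each of 14 libraries for listed genes with a mean of at least 5% (y axis, with the list in brackets), coloured by group; triangles are shorter-fragment and circles longer-fragment libraries, and the line is the mean. HADHA, RPL8, SRSF9, MVD, HNRNPA2B1 and CASC3 have all triangles left of all circles and SRSF2 and SRSF1 the reverse, while HNRNPH1, SCAP and RPS25 form single clouds.

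The study's comparisons were made on the log2 ratio of NMD TPM to the TPM of the other transcripts of the gene, with 0.5 added to each, in a limma fit of 12423 such ratios (NMD, retained-intron and noncoding classes), of which 3173 were NMD ratios of genes with a class mean of at least 0.5 TPM. No NMD ratio was called at an adjusted p below 0.05 for knockdown in regular medium, knockdown after CSM, CSM in control cells, CSM in knockdown cells or the interaction (the knockdown difference after CSM less the one in regular medium). The share of all 12423 ratios called was 0.0% in each comparison. At an unadjusted p below 0.05 limma had 111, 212, 54, 227 and 150 NMD ratios in that order, which is 3.50%, 6.68%, 1.70%, 7.15% and 4.73% of those tested, beside 3.49%, 11.9%, 1.56%, 7.71% and 5.62% of all 12423. The median log2 difference over the 3173 ratios was 0.16, -0.08, 0.01, -0.22 and -0.24. Over the 9250 ratios of the other classes it was 0.08, 0.39, -0.11, 0.19 and 0.29 in the same order; the difference between the classes was not tested.

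By list, none of the 13 SR, 26 hnRNP and other, 12 NMD factor, 28 ribosomal and 14 lipid enzyme ratios tested was called in any comparison. At an unadjusted p below 0.05 for knockdown after CSM there were 0 SR, 2 hnRNP, 1 NMD factor, 2 ribosomal and 1 lipid ratios, beside 6.68% of all NMD ratios. Both tested NMD target ratios, UPP1 and TBL2, were among those at an unadjusted p below 0.05, with a median log2 difference of -1.16, and neither passed the adjusted threshold.

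The genes with the smallest p are given as values that did not pass. For knockdown in regular medium, POLD2, a subunit of DNA polymerase delta, was at 2.7%, 1.8% and 1.9% in controls and at 6.5%, 6.0% and 15.8% in knockdown (log2 ratio difference 1.88, SE 0.43, limma adjusted p = 1.0). In the second pair of groups it was at 1.5% to 2.7% in controls and 4.1% to 7.1% in the libraries labelled knockdown, again with no overlap (1.13, SE 0.38, limma adjusted p = 0.35). TMEM258, a subunit of the oligosaccharyltransferase, was at 15.4%, 16.9% and 6.2% in controls and at 39.0%, 60.0% and 36.2% in knockdown, but its groups overlapped after CSM. The helicase gene DDX49 had means of 3.17% in controls and 16.7% in knockdown.

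For knockdown after CSM, PLEKHA5 was at 40.4%, 29.2%, 22.9% and 35.7% in controls and at 0.0%, 0.0%, 6.2% and 0.0% in the libraries labelled knockdown (log2 ratio difference -2.28, SE 0.46, limma adjusted p = 0.25). LETMD1 was at 30.7%, 20.05%, 34.5% and 22.0% against 0.4%, 13.0%, 1.3% and 7.1% (-3.07, SE 0.64, limma adjusted p = 0.25), and MSL3, of a chromatin-modifying complex, had means of 18.3% and 0.962%. None of these groups overlapped, and library 4 of the libraries labelled knockdown, the one with FASN at the level of the controls, lay with the other 3 in each. These genes were picked for the smallest p in a fit that held library 4, so its place among them cannot speak to its label. Without library 4 the log2 ratio differences were -2.45 for PLEKHA5, -3.38 for LETMD1 and -3.10 for MSL3 (limma adjusted p = 0.26, 0.26 and 0.27), and the count of called NMD ratios was again 0. The PLEKHA5 gene as a whole was at a log2 fold change of -1.34 in the same comparison (SE 0.35, edgeR adjusted p = 0.074), so its total level was lower too in these libraries without passing the threshold. The mean of the PLEKHA5 gene over 14 libraries was 5.38 TPM, near the cutoff of 5 TPM. The NMD level of MSL3 had a mean of 0.912 TPM over 14 libraries, against a cutoff of 0.5 TPM. Its mean share was 6.12% in controls and 4.25% in knockdown of regular medium. MSL3 may thus have passed the filter mainly through the CSM controls, which limits what its small p means.

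For CSM in control cells, PTPN11, the phosphatase SHP2, was listed at 0.0% in the 3 controls and at 12.0%, 9.9%, 0.0% and 3.4% after CSM, and 1 CSM library thus overlapped the controls. GTF3A, a transcription factor for 5S ribosomal RNA, had means of 16.6% and 3.22%, and NDUFS8, of respiratory complex I, 1.57% and 0.475%. For CSM in knockdown cells, TAF1D, a factor of ribosomal RNA transcription, was at 33.5%, 46.8% and 47.9% in regular medium and at 19.2%, 16.9%, 12.7% and 21.1% after CSM (log2 ratio difference -1.81, SE 0.35, limma adjusted p = 0.48). In control cells it was at 30.2% to 33.7% in regular medium and at 24.7% to 35.7% after CSM. CEP43 had means of 11.0% and 1.96%. RCOR1 was at 0.0%, 21.1% and 29.3% in regular medium and at 0.0% in all 4 libraries after CSM, so that knockdown replicate 1 overlapped them. Its NMD level had a mean of 0.601 TPM over 14 libraries, near the cutoff of 0.5 TPM. RCOR1 thus passed the filter mainly through the libraries where the share was high, which limits what its small p means.

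The interaction was smallest in p for ARHGDIA, PPM1D, a phosphatase of the p53 pathway, and LMNA, lamin A (limma adjusted p = 0.88 each). PPM1D was at 28.1% to 32.2% in controls, at 33.0% to 43.3% in knockdown, at 31.2% to 47.0% in CSM controls and at 13.6% to 20.8% in the libraries labelled knockdown after CSM (interaction -1.95, SE 0.49). ARHGDIA was at 0.1% to 0.5%, 0.3% to 9.5%, 0.9% to 17.6% and 0.0% to 0.1% in the same order. In the CSM controls its values were 0.9% and 1.0% in the shorter and 17.6% and 8.6% in the longer libraries, and with the 8 longer libraries alone its ratio was called for knockdown after CSM (log2 ratio difference -6.75, limma adjusted p = 0.029). That fit had 2 libraries per group, and both labelled knockdown after CSM were at 0. It called 1 of 3173 NMD ratios (0.0315%) and 0 of 9250 others.

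**Figure D4:**
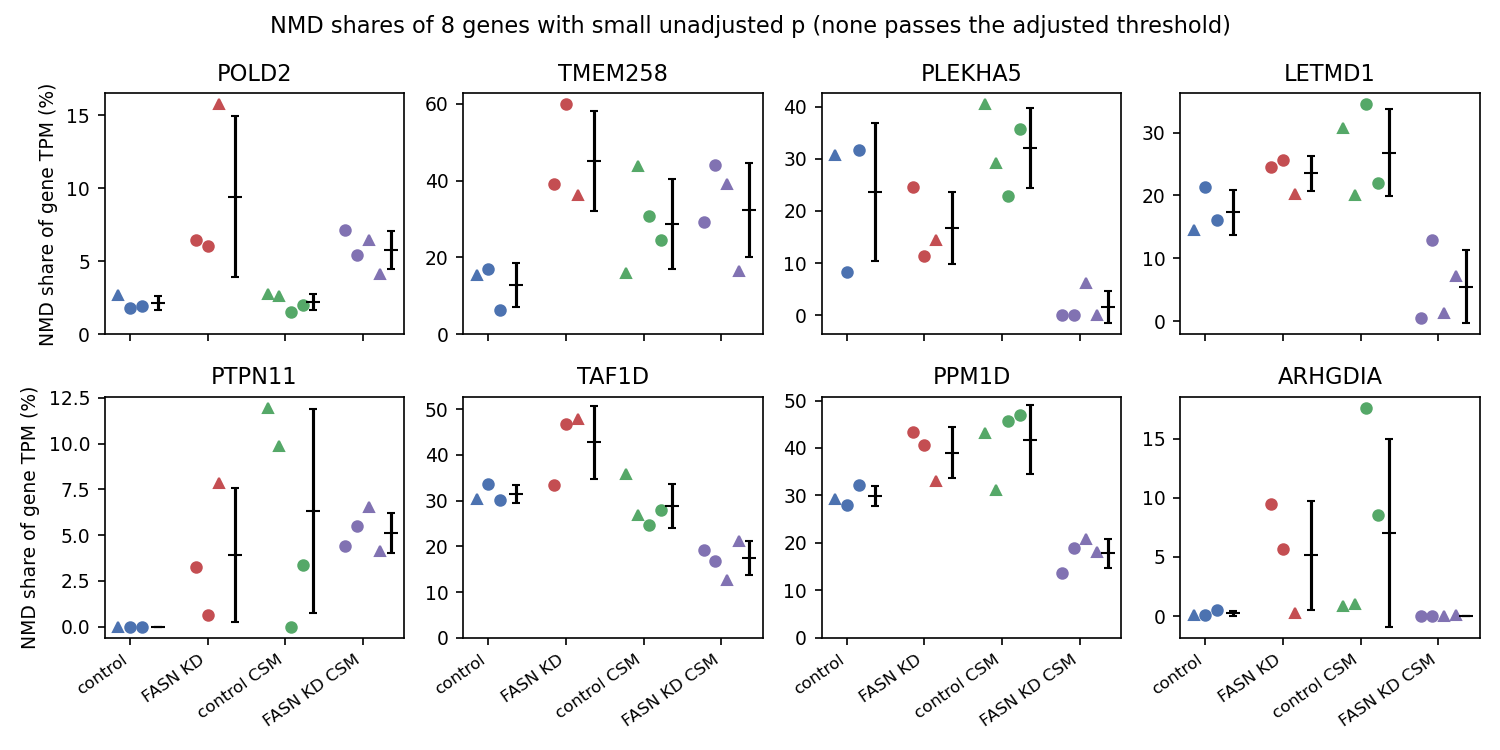
NMD share of gene TPM (y axis, percent) by group in each library for 8 of the genes with the smallest unadjusted p, with triangles for shorter-fragment and circles for longer-fragment libraries and black bars for the group mean ± SD. PPM1D and PLEKHA5 are lowest in the libraries labelled knockdown after CSM (13.6% to 20.8% and 0.0% to 6.2%), and no ratio passed the adjusted threshold.

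Single transcripts were tested with edgeR's quasi-likelihood test on the rounded estimated counts of all 97375 transcripts that passed the filter on low counts, 9485 of them (44.3% of the class) NMD transcripts. None of the 9485 was called in any of the 5 comparisons, against 0.00308%, 0.00308%, 0.0%, 0.00205% and 0.00205% of all transcripts tested. At an unadjusted p below 0.05 edgeR had 572, 667, 389, 662 and 600 NMD transcripts, which is 6.03%, 7.03%, 4.10%, 6.98% and 6.33% of the 9485, beside 5.2%, 7.4%, 2.58%, 5.93% and 4.85% of all 97375. DESeq2 called 266, 197, 135, 270 and 264 NMD transcripts, or 2.80%, 2.08%, 1.42%, 2.85% and 2.78%, beside 1.98%, 2.28%, 0.884%, 1.99% and 1.83% of all transcripts. The differences between these shares were not tested. In 231, 140, 128 and 230 of the DESeq2 calls of the 4 pairwise comparisons, all libraries of 1 group were at 0 counts. Without replicate 4 of the libraries labelled knockdown after CSM, edgeR called 1 NMD transcript for knockdown after CSM, COX11-209, and none for the interaction. Estimated counts of single transcripts switched between 0 and clearly detected from library to library: the biological coefficient of variation was 1.24 in this fit.

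The transcripts with the smallest p were mostly of this on-or-off kind. BCL2L12-207, of a BCL2-like protein, was at 2.5, 4.0 and 1.9 CPM in controls, listed at 0 in all 3 knockdown libraries of regular medium, and at 1.3 to 5.7 CPM in all 8 libraries after CSM (edgeR adjusted p = 0.053 for knockdown and 0.064 for CSM in knockdown cells). SNAPC3-205, of a complex for small nuclear RNA transcription, had the same pattern, with 2.8, 3.2 and 5.0 CPM in controls, 0 in knockdown and 0.3 to 4.2 CPM after CSM (edgeR adjusted p = 0.076 and 0.15). INTU-203 was listed at 0 in all 7 libraries labelled knockdown and at 1.7 to 5.2 CPM in all 7 control libraries, without passing the threshold in either medium (edgeR adjusted p = 0.22 in regular medium and 0.13 after CSM). FSTL1-211, of a secreted glycoprotein, was detected in every library: 33.9, 36.1 and 30.7 CPM in controls, 22.1, 11.2 and 14.2 CPM in knockdown, 28.2, 26.4, 22.9 and 30.2 CPM in CSM controls and 7.5, 12.0, 11.7 and 9.9 CPM in the libraries labelled knockdown after CSM (log2 fold change after CSM -1.39, SE 0.27, edgeR adjusted p = 0.46). Neither pair of groups overlapped. OGT-215, of the enzyme that adds N-acetylglucosamine to proteins, was at 63.2, 104 and 69.5 CPM in controls and 27.3, 33.7 and 31.2 CPM in knockdown, and at 70.6, 49.2, 22.0 and 45.5 CPM in CSM controls and 93.9, 92.9, 123 and 86.0 CPM in the libraries labelled knockdown after CSM. The knockdown difference thus had opposite signs in the 2 media (interaction 2.44, SE 0.48, edgeR adjusted p = 0.94).

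The largest pattern in the NMD ratios did not follow the study's groups. The first principal component of the 3173 ratios held 34.2% of their variance and had a negative score in all 6 shorter-fragment and a positive one in all 8 longer-fragment libraries. With the fragment length term added to the limma fit, after the data had been seen, the ratio of 217 genes rose and that of 252 fell with longer fragments at an adjusted p below 0.05. That is 469 of 3173 NMD ratios (14.8%), beside 15.4% of all 12423 ratios (7.12% rising and 8.24% falling), so the class stood near the background. The count was 184 without knockdown replicate 3, 218 without control replicate 1 and 208 with reads in place of TPM, and 178 of the 469 were called in the same direction by reads. Within the lists, 1 SR ratio rose and 3 fell of 13, 4 rose and 4 fell of 26 hnRNP and other regulators, 2 rose of 12 NMD factors, 3 rose and 2 fell of 28 ribosomal and 2 rose and 3 fell of 14 lipid enzyme ratios.

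The largest slopes among called genes of at least 50 TPM, a choice made after the values were seen, were those of SRSF9, RNPS1, PRMT5, RPL8, ATP2A2 and HADHA in the rising direction. SRSF9 had a slope of 2.94 on the log2 ratio scale per 10 bases (SE 0.40, limma adjusted p = 0.0015) and RPL8 one of 1.505 (SE 0.25, limma adjusted p = 0.0030). PRMT5, an arginine methyltransferase, was at a median of 0.852% in the shorter and 43.2% in the longer libraries, with no overlap, and ATP2A2, a calcium pump, at 0.0% to 8.8% and 21.5% to 38.6%. DDIT4, a stress-induced inhibitor of mTOR signalling, fell with a slope of -2.63 (SE 0.37, limma adjusted p = 0.0015): it was at 21.2% to 60.2% in the shorter and at 0.2% or less in the longer libraries. The other 5 largest falls were those of ARL6IP1, CD44, CLTC, BNIP3L and CANX. For RPL8, SRSF9 and DDIT4 the values formed a step between 175.6 and 181.6 bases and not a gradient within either set. The 2 sets come from a cut at 180 bases made after the data had been seen. Whether they reflect a real division of the libraries is unknown here, and what makes these shares differ between them was not tested. With fragment length as a covariate, or with the 8 longer libraries alone, the study's comparisons kept a count of 0 called NMD ratios, with the exception of ARHGDIA in the 8 libraries for knockdown after CSM and for the interaction.

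**Figure D5:**
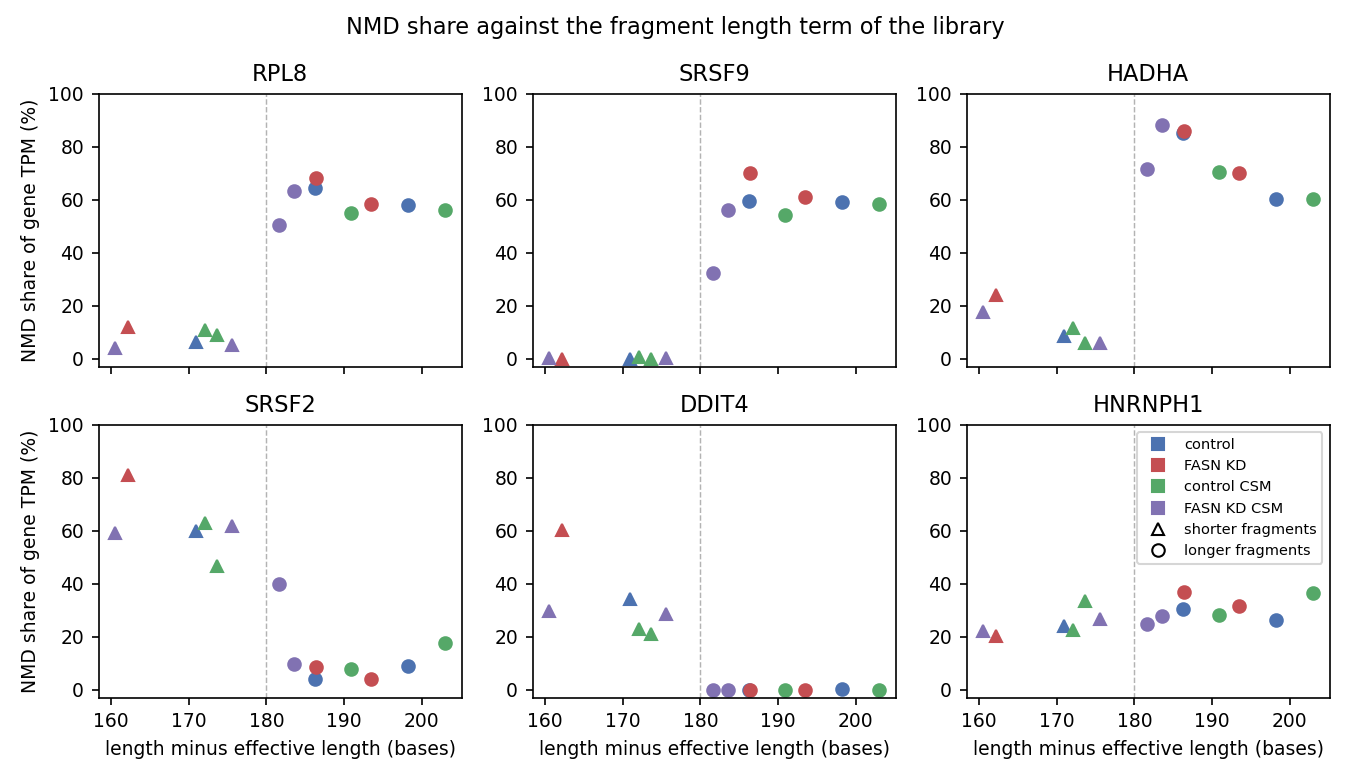
NMD share of gene TPM (y axis, percent) against the fragment length term of the library (x axis, length minus effective length in bases) for 6 genes, one point per library coloured by group; the dashed line at 180 bases parts the 6 shorter from the 8 longer libraries. RPL8, SRSF9 and HADHA are high only to the right of the line, SRSF2 and DDIT4 high mostly or only to its left, and HNRNPH1 runs between 20.5% and 36.8% on both sides.

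The genes that carry out NMD were measured at the gene level, by edgeR on the summed counts of 22560 genes. All 25 listed factors were tested, and none was called in any comparison, beside 0.204% of all genes for knockdown in regular medium, 1.17% for knockdown after CSM and 0.0% in the other 3. At an unadjusted p below 0.05 there were 0, 2, 0, 0 and 0 factors by edgeR, beside 9.08%, 18.5%, 1.4%, 6.67% and 5.22% of all genes, and DESeq2 also called none. Their median log2 fold change was -0.13 for knockdown in regular medium and -0.15 after CSM, with 0.02 and 0.01 over all genes, and -0.03, -0.03 and -0.05 in the other comparisons. UPF1 was at 176 CPM ± 2.1 in controls and 137 CPM ± 6.4 in knockdown (SD, n = 3 each), and at 167 CPM ± 9.8 and 134 CPM ± 12.0 after CSM (SD, n = 4 each). Its knockdown log2 fold changes were -0.36 in regular medium and -0.31 after CSM (edgeR adjusted p = 0.56 and 0.27). The 2 factors at an unadjusted p below 0.05 were EIF4A3, the helicase of the exon junction complex, with 105 CPM ± 22.8 in CSM controls and 65.1 CPM ± 13.9 in the libraries labelled knockdown (SD, n = 4 each; edgeR adjusted p = 0.21), and the release factor ETF1, with 250 CPM ± 60.3 and 157 CPM ± 35.5 (edgeR adjusted p = 0.21). SMG1 was at 471 CPM ± 74.3 and UPF3B, which links UPF1 to the exon junction complex, at 15.7 CPM ± 5.9 (SD over 14 libraries). UPF3B was at 6.6 to 12.2 CPM in the shorter-fragment and 17.6 to 23.6 CPM in the longer-fragment libraries, and the part of this split in its level was not tested.

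Genes whose mRNAs are known NMD targets were not called either: 12 of 12 were tested, and at an unadjusted p below 0.05 there were 3, 3, 0, 0 and 0 by edgeR, beside the same shares of all genes (9.08% and 18.5% in the first pair). UPP1 and GADD45B were among them in both media. Their knockdown log2 fold changes were -1.21 and -0.97 in regular medium (edgeR adjusted p = 0.52 and 0.53). After CSM they were -0.99 and -0.92 (edgeR adjusted p = 0.27 and 0.21). ZFAS1, a noncoding host gene of small nucleolar RNAs, was at 157 CPM ± 22.5 in CSM controls and 86.9 CPM ± 17.8 in the libraries labelled knockdown (SD, n = 4 each; log2 fold change -0.85, edgeR adjusted p = 0.12). SNHG15, another such host gene, was at 24.0 CPM ± 7.7 in controls and 12.8 CPM ± 5.2 in knockdown (SD, n = 3 each; edgeR adjusted p = 0.37). ATF4, the transcription factor of the integrated stress response, had 229 CPM ± 94.1 in controls and 186 CPM ± 41.3 in knockdown (SD, n = 3 each), well within their spread. In bulk tissue, fewer cells with a transcript and less of it per cell cannot be told apart.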

How the data were processed

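The deposited tables, 1 per library, hold estimated counts (NumReads) and TPM for 252048 transcripts; per the file headers they also give each transcript's length and effective length in bases. Per the submitters' processing notes, FastQC, cutadapt and Salmon were used with GRCh38; no source used names their versions or settings, or the release of the annotation. Total RNA came from frozen xenograft tissue, per the labels' protocols. The authors' tables list human transcripts, and no source used describes a separation of mouse reads.

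The members, gene lists and comparisons were chosen with earlier results of these data known. Estimated counts were rounded and tested with edgeR 4.0.16 (quasi-likelihood, TMM, all groups in 1 fit, R 4.3.3), for transcripts and for counts summed per gene. Log2 ratios of class TPM to other TPM (0.5 added to each; genes with a mean of at least 5 TPM, classes of at least 0.5 TPM) were tested with limma 3.58.1. Adjusted p-values are Benjamini-Hochberg over all features tested, and called means below 0.05. Library shares were compared with exact two-sided permutation tests (scipy 1.17.1). The fits were tested on simulated data for knockdown after CSM, with 50 features changed at each size. For changes by a factor of 2, 0 transcripts, 1 gene and 1 ratio were recovered. For a factor of 4, 14 transcripts, 30 genes and 25 ratios were recovered, and for 8, 44, 47 and 32. False calls were 1, 7 and 7. These counts hold for the spread of the simulated data. For transcripts that spread was set well below that of the libraries, where the biological coefficient of variation was 1.24. The transcript counts thus overstate what the fit could recover there. A count of 0 calls in the libraries does not exclude changes by a factor of 2 or 4, or larger ones for single transcripts. DESeq2 1.42.0, other pseudocounts, filters, totals, a replicate block and leaving out each library were alternatives; the fragment length term (median length minus effective length over transcripts of at least 5000 bases, parted at 180) was added after the data had been seen. Total counts were 15810287 to 45209466 per library, with 464319 to 1484378 on NMD transcripts; they limit precision for rare transcripts, which an assignment shared among overlapping transcripts limits further.

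Genes were named by rule: the 15 transcripts of highest mean TPM, the 15 genes of highest NMD share, the largest changes per comparison or, where none was called, the 3 of smallest p, and in each list the genes with a share of at least 20% and the 3 of highest NMD TPM. Genes of other kinds were chosen after their values were seen, among them those beside a list's leading genes. Same-numbered libraries were checked for pairing by the correlation of their deviations from the group means: only for CSM in knockdown cells was it above 0.1 in every pair (0.104, 0.374 and 0.360). There the replicate block left the count of called NMD transcripts and NMD ratios at 0. In all comparisons the correlation was positive where both libraries were of the same fragment set and negative where they were not. Pairing by number and fragment set thus cannot be told apart by this check. Some named results are not reported here.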

Additional observations from a re-analysis of the deposited data

Results flagged for a closer look

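In groups of 4 libraries, the highest or lowest value was set apart from the other 3 by Dixon's criterion in 7 of 116 groups examined. Chance alone sets apart about 1 in 20 where values are normally distributed, a rate that does not hold for shares with a floor at 0. In 5 of the 7 the other libraries were listed at 0, and there any value above 0 is set apart whatever its size. The NMD share of RNPS1 was 22.0% in CSM control replicate 4 and 0 in the other 3, and that of RCOR1 was 4.24% there and 0 in the others. Among the libraries labelled knockdown after CSM, PLEKHA5 was at 6.18% in replicate 3, MSL3 at 3.85% in replicate 2 and ARHGDIA at 0.0756% in replicate 4, with the others at 0. SCAP was at 21.1% in replicate 3 of that group, with the others at 24.3% to 24.6%. EIF3F-204 was at 37.5 TPM in CSM control replicate 3, a library with 16.3% of its reads on 7SL, and at 74.6 to 79.2 TPM in the other 3.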

How the results depend on the processing

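No difference in library share passed its test, and several turned sign. Knockdown minus control in regular medium was 0.0490 percentage points of reads without 7SL, 0.0916 over coding genes and 0.258 over NMD host genes, and 0.152 and 0.356 of TPM over coding and host genes. CSM minus regular medium in knockdown cells was -0.0889, -0.0749 and -0.206 of reads for the same totals, and -0.252 and -0.550 of TPM over coding and host genes. Without the 2 libraries richest in 7SL, the regular-medium knockdown difference was 0.0147 of reads and 0.0737 of TPM, and CSM in controls 0.133 of TPM. Leaving out each library in turn gave -0.392 to 0.0147 of reads and -0.561 to 0.0737 of TPM for the former and -0.156 to 0.133 of TPM for the latter; the sign of the former turned without knockdown replicate 2, and that of the latter without control replicate 2, control replicate 3 or CSM control replicate 3. The cause was not tested.

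For knockdown in regular medium, knockdown after CSM, CSM in controls, CSM in knockdown cells and the interaction, DESeq2 called 266, 197, 135, 270 and 264 NMD transcripts where edgeR called 0; over all transcripts DESeq2 called 1.98%, 2.28%, 0.884%, 1.99% and 1.83%. With a filter of 1 CPM edgeR called 1 (BCL2L12-207) for knockdown in regular medium and CSM in knockdown cells; without the 2 libraries richest in 7SL it called 1 (PTPN11-216) for knockdown in regular medium, CSM in controls and the interaction. Leaving out each library gave 0 to 4, 0 to 1, 0 to 1, 0 to 4 and 0 to 2 calls; the 4 came without knockdown replicate 1. NMD ratios called by limma were 1 (BCL2L12) by reads for knockdown in regular medium, CSM in knockdown cells and the interaction, 1 (ARHGDIA) in the 8 longer-fragment libraries for knockdown after CSM and the interaction, and 0 to 1 (RCOR1, without knockdown replicate 1) for CSM in knockdown cells. Ratios moving with fragment length numbered 208 by reads and 184 to 494 without 1 library. In the comparisons other than CSM in knockdown cells, same-numbered libraries had correlations from -0.409 to 0.502. Whether the replicate numbers pair the libraries cannot be told from these values. The replicate block left 0 calls of NMD transcripts and ratios, and FASN in regular medium had an adjusted p of 0.0847 with it (edgeR). At these depths 4827 of 21390 were at 0 in every library; the part of depth was not tested.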
